A study of Mus musculus with 4 samples.

Results

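The genes described here encode subunits and assembly factors of the mitochondrial respiratory chain and ATP synthase. They were taken from the array by symbol: a probe set counted when the array's annotation named 1 gene for it and that symbol began with Nduf, Sdh, Uqcr, Cox4, Cox5, Cox6, Cox7 or Atp5. That gave 179 probe sets of 91 genes, out of 18193 genes that have a probe set of their own, and each gene was represented by its probe set with the highest mean signal over the 4 arrays. Of the 91 genes, 90 passed the filter on low signals (a mean of at least 69.6). The remaining one was Cox7b2, a form of a complex IV subunit, with LPS signals of 30.5 and 18, and of 132.2 and 4.3 once immune complexes were added.

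The cells were mouse macrophages grown from bone marrow for 7 days with 20% L-cell conditioned medium, which supplies M-CSF. All 4 samples were primed with interferon-gamma at 100 U/ml, for 16 h per the labels of the LPS group and overnight per those of the other group, and stimulated for 2 h. The LPS group received lipopolysaccharide, a bacterial ligand of TLR4, at 10 ng/ml, and the second group received that dose plus immune complexes, which are clusters of antigen and antibody recognised by Fc gamma receptors. Each group had 2 arrays, numbered replicate 1 and replicate 2, and no group was left without LPS or without interferon-gamma. The labels used here give no strain, sex or age of the mice and do not say whether replicates were separate cultures, so p-values measure only the spread between these samples, and that spread may be technical.

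Oxidative phosphorylation passes electrons from NADH (complex I) and succinate (complex II) through complex III to complex IV, where oxygen is reduced. Complexes I, III and IV pump protons across the inner mitochondrial membrane, and ATP synthase (complex V) uses the return of those protons to make ATP. Macrophages activated by LPS and interferon-gamma are known for a shift of their energy metabolism from respiration towards glycolysis, and complexes I and II are known sources of oxidants and of succinate-linked signals in these cells. All genes counted here are nuclear, and the subunits that the mitochondrial genome encodes are outside the symbols used.

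The promoters of these genes are known for short sequence elements of the factors NRF1, the ETS family member GABP, and YY1, and the stretches that hold them are shown because they are a feature the selection by symbol did not use. RefSeq promoter windows (GRCm38.p6, 250 bases before to 50 bases after a transcript start) matched 76 of the 91 genes by gene ID. The letters CGCATGCG (NRF1), read on both strands, occurred in a window of 10 genes, or 13.2% of the 76, and in 2.07% of the 27025 genes with a window. The ETS letters CCGGAAG occurred in 21 genes (27.6% against 9.93% of all), and the YY1 letters AAGATGGC in 10 genes (13.2% against 3.19% of all). In 0 of these genes did matches of different motifs overlap. At least 1 of the 3 motifs was present in 34 genes, 44.7% of those matched and 14.1% of all genes. The following 250 bases before the start, 1 for each of complexes I, III, IV and V, hold no other annotated gene, and capitals mark the NRF1 or ETS letters on either strand, in sequences written 5′ to 3′ on the gene's own strand. Complex II is not shown, since among its subunits only Sdhd has a motif wholly before the start, and that stretch overlaps a neighbouring gene.
Ndufb7 (chr8:83566508-83566757, + strand): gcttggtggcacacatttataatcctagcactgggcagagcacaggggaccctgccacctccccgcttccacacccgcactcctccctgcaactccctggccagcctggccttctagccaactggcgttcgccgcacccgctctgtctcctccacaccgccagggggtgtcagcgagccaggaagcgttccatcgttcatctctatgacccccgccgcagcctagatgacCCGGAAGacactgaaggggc
Uqcr11 (chr10:80406822-80407071, - strand): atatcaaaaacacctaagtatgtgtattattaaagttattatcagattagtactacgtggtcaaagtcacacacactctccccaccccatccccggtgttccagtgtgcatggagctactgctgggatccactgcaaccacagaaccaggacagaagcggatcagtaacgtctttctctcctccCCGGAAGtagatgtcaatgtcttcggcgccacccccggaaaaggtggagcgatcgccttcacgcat
Cox6a1 (chr5:115348959-115349208, - strand): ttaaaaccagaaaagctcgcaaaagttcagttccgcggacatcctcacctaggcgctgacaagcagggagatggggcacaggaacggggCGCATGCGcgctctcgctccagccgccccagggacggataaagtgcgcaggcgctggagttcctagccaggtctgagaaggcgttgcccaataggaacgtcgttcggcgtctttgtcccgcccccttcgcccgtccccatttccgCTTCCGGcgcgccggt
Atp5g2 (chr15:102671048-102671297, - strand): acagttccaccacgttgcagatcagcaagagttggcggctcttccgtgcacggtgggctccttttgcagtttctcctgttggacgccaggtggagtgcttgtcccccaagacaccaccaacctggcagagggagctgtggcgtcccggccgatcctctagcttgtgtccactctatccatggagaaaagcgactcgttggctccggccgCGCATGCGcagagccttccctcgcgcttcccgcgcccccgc
In Ndufb7, a membrane-arm subunit of complex I, the marked letters are those of ETS and begin at base -20 from the start. In Uqcr11, a small subunit of complex III, the ETS letters begin at base -66. Its window also holds the NRF1 letters, which do not lie wholly before the start and so are not marked. In Cox6a1, a subunit of complex IV, the NRF1 letters begin at base -161 and those of ETS at base -16. In Atp5g2, which encodes the c subunit of the rotating ring of ATP synthase, the NRF1 letters begin at base -41. A match of letters is a description and not a binding site.

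Signals were MAS 5.0 intensities, compared as log2(signal + 32), so a log2 difference is the mean of the LPS plus immune complexes arrays minus that of the LPS arrays. Values are given in the order LPS replicate 1, LPS replicate 2, then LPS plus immune complexes replicate 1 and replicate 2. The arrays differed in their low signals: the median over probe sets was 155.4 for LPS plus immune complexes replicate 1 and 68.2 to 88.3 for the other 3. For genes with a mean signal of at least 2000 the same array was the lowest, with a median log2 signal of 11.87 against 12.06 to 12.11. Because 70 of the 90 respiratory chain genes lie above that signal, counts are read below against all tested genes and against the 2405 tested genes that also lie above it. The 9 macrophage markers examined had mean signals of 1307 to 37096. Of these, 7 had a log2 difference below 0, 3 read lower in all 4 array pairs and 0 higher. These counts lie near the shares among the 2405 genes, of which 71.8% had a difference below 0. In all 4 pairs 25.5% of the 2405 read lower and 9.02% higher. The summed signal of the 9 markers was 179094 and 216713.5 with LPS alone and 156985.7 and 175667.4 with immune complexes. Markers of T cells, B cells, dendritic cells, mast cells, fibroblasts and erythroid cells did not exceed 346.4 on any array, and the highest granulocyte marker, S100a8, reached 1137.6. The summed signal of the 7 granulocyte markers was 959.7 and 1012.7 with LPS alone and 1575.3 and 1580.1 with immune complexes. S100a8 carried that gap, since the other 6 summed to 418.9 and 508 against 704 and 442.5, and 3 of the 7 had a difference below 0. The part of these markers in the results below was not tested.

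No respiratory chain gene passed the test between the stimulations. By limma's moderated test the adjusted p was 1.0 for each of the 90 genes, none had an unadjusted p under 0.05, and the lowest unadjusted p was 0.0851, for Atp5k. Over the whole array 14 of 27022 probe sets were called (0.0518%), or 8 of 12891 genes (0.0621%), and 759 probe sets had an unadjusted p under 0.05. The readings nevertheless leaned to one side. With immune complexes 81 of the 90 genes had a log2 difference below 0, with a median of -0.26 (a fold of 0.837) and quartiles of -0.33 and -0.13. In 39 genes (43.3%) both LPS plus immune complexes arrays read below both LPS arrays, where 13.1% of all tested genes did, and in 3 genes (3.33%) both read above, where 13.2% did. The median over all tested genes was 0.05. In bulk RNA such as this, fewer cells with a transcript and less transcript per cell cannot be told apart.

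Other genes with strong signals leaned the same way. Among the 2405 genes with a mean signal of at least 2000, the median log2 difference was -0.16, and 25.5% read lower in all 4 array pairs and 9.02% higher. The 70 respiratory chain genes above that signal had a median of -0.29, with 67 below 0, 37 lower in all 4 pairs (52.9%) and 0 higher in all 4 pairs. The 20 tested genes below that signal had a median of -0.15, with 14 below 0, 2 lower in all pairs and 3 higher. The difference between the median of the 70 genes and that of the genes of like signal was -0.14 on the log2 scale over all arrays, but -0.003 without LPS replicate 1 and -0.03 without LPS plus immune complexes replicate 2. After quantile normalization of the arrays the shares lower in all pairs were 27.1% for the 70 genes and 16.5% for genes of like signal.

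**Figure D1:**
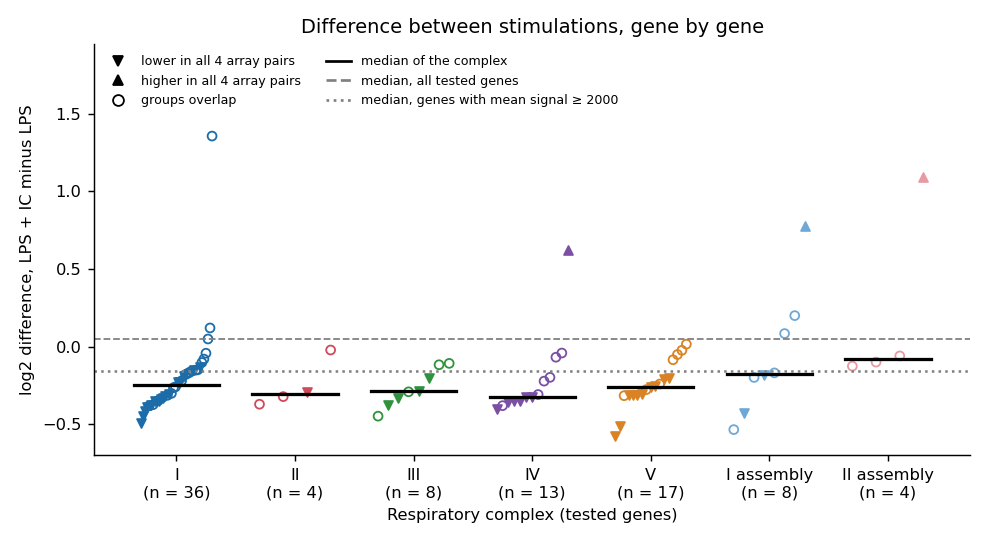
Log2 difference in signal, LPS plus immune complexes minus LPS (vertical axis), of the 90 tested genes, grouped by complex, with 1 symbol per gene (triangles for genes lower or higher in all 4 array pairs, circles where the groups overlap) and a line at each group's median. The group medians lie between -0.32 and -0.08, all below the median of 0.05 of all tested genes, and the 4 symbols above 0.5 are genes of low signal: Ndufb4, Cox7a1, Ndufaf7 and Sdhaf3.

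Complex I, the NADH dehydrogenase, is the largest group, with 36 tested subunits. Its median log2 difference was -0.24, with 33 subunits below 0, 16 lower in all 4 pairs (44.4%) and 0 higher. Of all tested genes 13.1% read lower in all pairs, and of those with a mean signal of at least 2000, 25.5% did. The 6 measured core subunits carry the flavin or iron-sulfur clusters, apart from Ndufs3. The median of the 6 was -0.32, and 5 of them read lower in all pairs (83.3%). Ndufv1, which binds NADH and the flavin, gave 3325.4, 3602.6, 2497.5 and 2948.3 (log2 difference -0.35 ± 0.32, SE). Both of its LPS readings lay above both readings with immune complexes, with a gap between the groups smaller than the difference between the 2 latter arrays. Ndufs3, another core subunit, gave 7442.7, 6812.4, 5901.2 and 5426.0 (-0.33 ± 0.28). Ndufs1, the largest core subunit with several iron-sulfur clusters, did not separate the groups: it gave 1876.4, 1301, 1498.6 and 1193 (-0.22 ± 0.37), and was higher on both arrays of replicate 1.

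The accessory subunits of complex I, which surround the core, covered a wider range. The 3 named Ndufs4, Ndufs5 and Ndufv3 read lower in all pairs, with a median of -0.38. Ndufv3 had the largest difference of the complex among genes lower in all pairs, with signals of 6930.2, 8612.9, 4511.9 and 6654 (-0.49 ± 0.31). Next came Ndufb1, with 2996.3, 1878.7, 1763.4 and 1699.2 (-0.45 ± 0.36), where LPS replicate 1 stood above the other 3 arrays. The smallest differences among those lower in all pairs were in Ndufb9 (5609.3, 5042.5, 4860 and 4842.6, a difference of -0.13) and Ndufc2 (10314.5, 8905.8, 8562.8 and 8682.9, a difference of -0.15). In these the groups were apart by a few percent of the signal only. The 14 subunits with Ndufa or Ndufab names had a median of -0.18 and 3 read lower in all pairs (21.4%). The 13 with Ndufb or Ndufc names had a median of -0.19 and 5 did (38.5%). Of the 14 subunits 13 had a mean signal of at least 2000, and of the 13 subunits 12 did. Among all tested genes at that signal 25.5% read lower in all pairs, so the 21.4% does not exceed that share. Ndufab1, the mitochondrial acyl carrier protein, lay on the other side of 0 (0.12), with 3815.2, 2579.4, 4063.1 and 2866.9, and was low on both arrays of replicate 2.

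A few complex I readings rest on weak or shared probe sets. The highest difference of all 90 genes, 1.36 ± 0.94 for Ndufb4, came from signals of 13.3, 62.9, 292.1 and 55, in which 1 array is high. Another probe set, annotated to Ndufb4 and further genes and so left out, gave 4126, 3250.6, 2947.7 and 3526.3 (-0.18). Ndufs6 and Ndufa11 are absent from the 91, since their probe sets name several genes, and the brightest of those gave 4500.2, 4937.2, 3077.6 and 3756.6 (-0.47) and 3515.3, 4362.6, 2347.9 and 3488.4 (-0.45). In both, the 2 readings with immune complexes lay below the 2 LPS readings. For Ndufa12 the dimmest of 4 probe sets ran the other way, with 315.6, 267.3, 862.2 and 476.1 (1.06), while the one used gave 5349.4, 5871.8, 4890.8 and 5568.7 (-0.10).

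Assembly factors of complex I, which build the enzyme without being part of it, had low signals throughout. The 8 tested Ndufaf genes had a median of -0.18, with 5 below 0. Of the 8, 2 read lower in all pairs (25%) and 1 higher (12.5%), where 13.1% and 13.2% of all tested genes did. Ndufaf5, which modifies a core subunit during assembly, gave 454.6, 402.4, 266.3 and 360.1 (-0.43), and Ndufaf1, an early factor, gave 565.2, 485.4, 447 and 469.7. Both read lower on each array with immune complexes. Ndufaf7, a methyltransferase that acts during assembly, read higher on both, with 127.9, 121.5, 334.1 and 165.4 (0.78 ± 0.53), most of it from replicate 1. Ndufaf6 varied by replicate, with 121.6, 165.1, 45.5 and 154.2.

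Complex II, succinate dehydrogenase, has 4 subunits, all nuclear, and its median log2 difference was -0.31 with all 4 below 0. Sdhb, which carries the iron-sulfur clusters, was the one lower in all pairs (25% of the 4, as for 25.5% of genes with a mean signal of at least 2000). It gave 14043.8, 11254.9, 10091.1 and 10400 (-0.29 ± 0.26). The flavoprotein Sdha gave 6988.7, 4189.4, 4782.6 and 3907.3 (-0.32 ± 0.34), and the membrane anchor Sdhd gave 5877, 3802.7, 3926 and 3391.1 (-0.37 ± 0.33). In both, LPS replicate 1 was high and the other 3 arrays lay together, so the groups overlapped. The other anchor, Sdhc, gave 4026.3, 3923, 3368.7 and 4547.7 (-0.02 ± 0.32), with the highest and the lowest reading both in the group with immune complexes. The median of complex II was -0.03 without LPS replicate 1 and -0.57 without LPS replicate 2, so the value rests on which LPS array is used. A second probe set of Sdhd ran the other way, with 600.6, 474.7, 925 and 891.8 (0.73).

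The 4 tested assembly factors of complex II had a median of -0.08. Sdhaf2, which attaches the flavin to Sdha, gave 925.2, 704.8, 797.6 and 708.6, and Sdhaf4, a chaperone of Sdha, gave 1496.4, 931.1, 1061 and 1099.1. In both the groups overlapped. Sdhaf1, which helps to insert iron-sulfur clusters into Sdhb, gave 192.4, 236.9, 172.1 and 240.1. Sdhaf3, with a related role, read higher with immune complexes at low signals of 61.2, 19.8, 105.5 and 127.2 (1.09 ± 0.87).

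All 8 measured Uqcr subunits of complex III, the cytochrome bc1 complex, had a log2 difference below 0. Their median was -0.29, and 4 read lower in all pairs (50%). All 8 had a mean signal of at least 2000, where 25.5% of tested genes read lower in all pairs. The share over all tested genes was 13.1%. Cytochrome c1 (Cyc1), another subunit, lies outside the chosen symbols. It gave 7329.2, 5127.1, 5403.8 and 4774.4 (-0.27 ± 0.31), with overlapping groups. Uqcr11, a small subunit, gave 4376.1, 4626.8, 3358 and 3559.8 (-0.38 ± 0.30), with the same difference of -0.38 within each replicate number. Uqcr10, also a small subunit, gave 6666.7, 5428.5, 4987.1 and 4580 (-0.33 ± 0.30). Uqcrb, which lies near the ubiquinone site, gave 26168.2, 27968.9, 21738.8 and 22619.8 (-0.29 ± 0.22), with close replicates in both groups. The hinge protein Uqcrh, which helps cytochrome c to dock, gave 14015, 12320.3, 11177.8 and 11625.4 (-0.20 ± 0.25).

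The remaining subunits of complex III differed more by replicate. The core protein Uqcrc1 gave 5238.3, 6560.2, 4370.8 and 5239.1 (-0.29 ± 0.30), with the upper reading of one group just above the lower reading of the other. The Rieske iron-sulfur protein Uqcrfs1 gave 7889.5, 4770, 6747.4 and 4800.2 (-0.11 ± 0.34). Both arrays of replicate 1 were high and both of replicate 2 low. Uqcrq had the largest difference of the complex, with 7807.2, 5009.9, 5431 and 3856.6 (-0.45 ± 0.33), but LPS replicate 2 read below the first array with immune complexes. A dim probe set of the same gene had a difference of 1.07.

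Complex IV, cytochrome c oxidase, transfers electrons to oxygen, and several of its subunits exist in a common form and in forms known from muscle, testis, lung or hypoxia. The 13 tested genes had a median of -0.32, with 12 below 0, 6 lower in all pairs (46.2%) and 1 higher (7.69%). The shares over all tested genes were 13.1% lower and 13.2% higher. Among genes with a mean signal of at least 2000 they were 25.5% and 9.02%. All 6 complex IV genes lower in all pairs were among the 9 common forms, whose median was -0.35. Cox6a1 gave 22648.9, 29106.9, 17689.9 and 21258.1 (-0.40 ± 0.24) and Cox6b1 gave 23685, 26316.6, 17955.2 and 21232.7 (-0.35 ± 0.23). In both, replicate 2 was the higher array of its group. Cox4i1, which contacts the catalytic core, gave 19512.6, 22445.7, 15164.1 and 18484.5 (-0.32 ± 0.24). Cox5b, which binds zinc, gave 20075.1, 22812.5, 15047.3 and 18661 (-0.35 ± 0.24), and its 4 probe sets with signals of at least 2000 gave differences of -0.42 to -0.34. Each of the 4 read lower in all pairs. The weakest of its 5 tested probe sets went the other way, with a difference of 0.56.

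Cox7a2 had the closest replicates of the complex, with 21456.3 and 21967.7 against 17242.3 and 17485.7 (-0.32 ± 0.23). Of the 8 subunits with a mean signal of at least 2000, Cox5a and Cox7a2l did not separate the groups. Cox5a gave 21439.5, 21767, 19355.9 and 21932.2 (-0.07 ± 0.23). Cox7a2l, which links complexes III and IV, gave 8884.6, 9451.2, 6709.8 and 9184.6 (-0.22 ± 0.28). All 9 common forms read higher on replicate 2 than on replicate 1 in both stimulations, by a median of 0.15 with LPS and 0.26 with immune complexes. One of the 9, Cox7c, rests on a weak probe set with signals of 77.1, 127.2, 40.4 and 109.6.

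The tissue forms of complex IV gave low signals on every array. Cox4i2, the lung and hypoxia form, gave 70.3, 141.2, 59.9 and 93.7, and Cox6b2, the testis form, gave 169.7, 154.9, 104.7 and 177.6. Cox6a2, the heart and muscle form, gave 483.8, 184.8, 493 and 169.2 (-0.04 ± 0.57), high on both arrays of replicate 1 and low on both of replicate 2. Cox7a1, also a muscle form, gave 121.1, 129.7, 281.4 and 155.6 (0.62 ± 0.53), the one gene of the complex that read higher in all pairs. Ndufa4, which is counted here with complex I by its name but is now known as a subunit of complex IV, gave 7499.9, 3542.4, 5442.2 and 2995.1 (-0.35 ± 0.41), and its hypoxia-linked relative Ndufa4l2 gave 37.3, 106.6, 121.7 and 17.2 (-0.17 ± 1.02). The difference between the replicates of Ndufa4 exceeded that between the stimulations.

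Complex V, ATP synthase, had 17 tested genes with a median of -0.26, of which 16 lay below 0 and 10 read lower in all pairs (58.8%). All 17 had a mean signal of at least 2000, and 25.5% of the tested genes at that signal read lower in all pairs. The share over all tested genes was 13.1%. The 2 genes with the largest differences of the whole chain among those lower in all pairs belong to it. Atp5k, subunit e of the membrane part, which holds enzyme dimers together, gave 11705.1, 13214.4, 6335.9 and 10950.2, or 12460 ± 1067 with LPS and 8643 ± 3263 with immune complexes (SD, n = 2 each; log2 difference -0.58 ± 0.31). Atp5d, the delta subunit of the central stalk, gave 11454.8, 13251.8, 7154.6 and 10410.2 (-0.51 ± 0.28). In both genes the first LPS plus immune complexes array was far lower than the second, which itself lay close below the LPS arrays.

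The 5 subunits of the catalytic F1 head and the central stalk had a median of -0.31. Of these, 4 read lower in all pairs (80%, where 25.5% of genes with a mean signal of at least 2000 did). Atp5a1, the alpha subunit, gave 13863.9, 10796.2, 9818.2 and 9904.8 (-0.31 ± 0.27). Over its 3 tested probe sets the difference ran from -0.31 to 0.50. Atp5b, the catalytic beta subunit, was the one that did not separate the groups, with 17479.6, 12122.5, 15088.4 and 12488.9 (-0.08 ± 0.27). The 3 genes of the c ring, which encode the same mature protein, had a median of -0.24, and Atp5g2 gave 7490.7, 7734.7, 6027.1 and 7279.8 (-0.20). The 4 genes of the outer stalk had a median of -0.13, among them Atp5o, the protein that confers oligomycin sensitivity, with 11066.8, 9467.2, 8800.7 and 8922.2 (-0.21). The 5 other membrane subunits had a median of -0.31. Atp5md, one of these, gave 6697.8, 3908, 7155.3 and 3739.9 (0.02) and followed the replicate number.

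**Figure D2:**
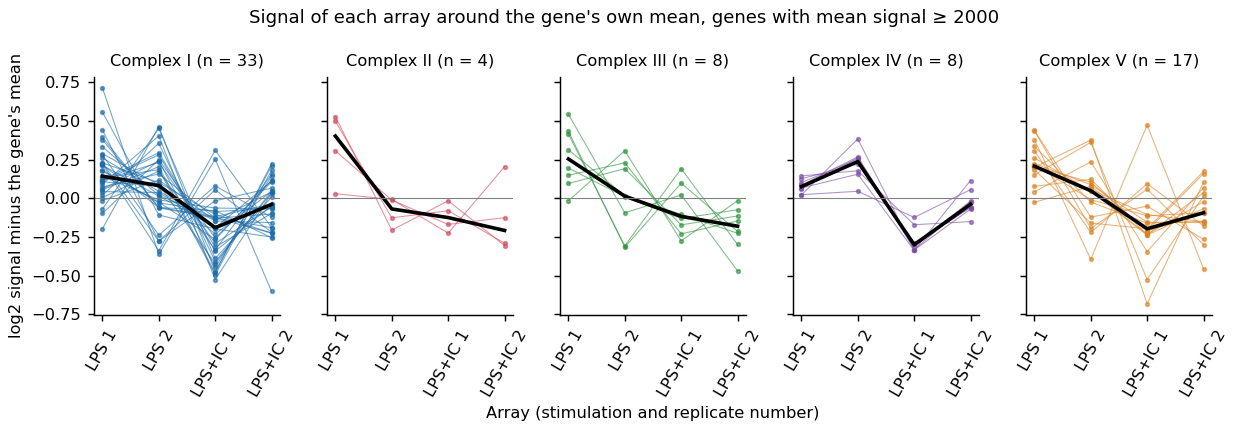
Log2(signal + 32) of the 70 genes with a mean signal of at least 2000 on each of the 4 arrays (horizontal axis), given as the deviation from the gene's own mean over the arrays (vertical axis), in 1 panel per complex, with a thin line per gene and a thick line for the median. LPS plus immune complexes replicate 1 is the lowest array for 46 of the 70 genes and LPS replicate 1 for 0 of them.

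Over the 90 genes the median absolute log2 difference was 0.22 between the LPS arrays, 0.27 between the LPS plus immune complexes arrays and 0.28 between the stimulations. The last is between means of 2 arrays, which vary less than single arrays, so the sizes are not directly comparable. Over all tested genes the same 3 values were 0.43, 0.56 and 0.28. Over genes with a mean signal of at least 2000 they were 0.36, 0.35 and 0.23, and over the 70 respiratory chain genes among these 0.21, 0.26 and 0.29. In 65 of the 90 genes the difference between the stimulations was smaller than at least 1 of the 2 replicate differences, and in 25 it was larger than both. Among the 70 genes with strong signals, LPS plus immune complexes replicate 1 was the lowest array in 46, replicate 2 of that group in 17 and LPS replicate 2 in 7. The highest array was LPS replicate 1 in 36 and LPS replicate 2 in 27. Compared within replicate numbers, the median difference between the stimulations was -0.36 in replicate 1, with 80 genes below 0, and -0.11 in replicate 2, with 67 below 0, and 62 genes were below 0 in both. The medians over all tested genes were 0.15 and -0.08, and those over genes of at least 2000 were -0.25 and -0.05.

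The gap between the replicate numbers was not alike over the complexes. In complex I the median difference was -0.36 in replicate 1 and -0.12 in replicate 2, in complex II -0.51 and -0.11, and in complex V -0.38 and -0.11. Complexes III and IV gave closer values, -0.33 and -0.27 for complex III and -0.36 and -0.28 for complex IV. Without the first array with immune complexes the medians over the remaining 3 arrays were -0.15 for complex I and -0.18 for complex IV, and without LPS replicate 1 they were -0.16 for complex III and -0.18 for complex V. Differences between complexes were not tested.

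Some genes separated by replicate number in both stimulations. A difference of over 0.3 on the log2 scale in the same direction in both was found in 17 genes, lower on replicate 2 in 9 and higher in 8. That is 18.9% of the 90, where 36.1% of all tested genes and 34.8% of those with a mean signal of at least 2000 met the same limits. Cox6a2 (-1.25 with LPS and -1.38 with immune complexes) and Ndufa4 (-1.08 and -0.85) had the largest among the 9, followed by Atp5md (-0.77 and -0.93). Uqcrfs1 (-0.72 and -0.49), Uqcrc2 (-0.75 and -0.31) and Uqcrq (-0.64 and -0.49) put 3 of the 8 complex III genes in this list. Subunits of complex I that were higher on replicate 2 included Ndufa2 (0.66 and 0.68) and Ndufa3 (0.52 and 0.39). What the numbers stand for is not given in the labels, and a cause was not tested.

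**Figure D3:**
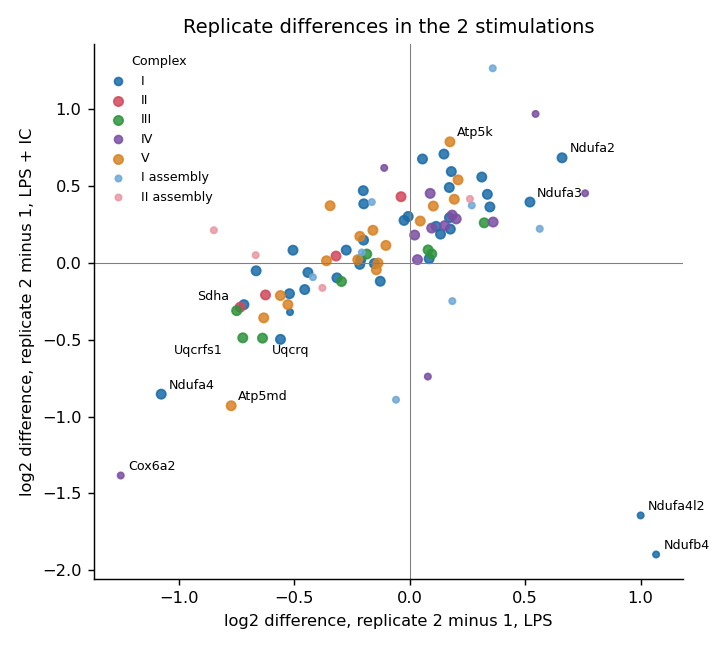
Log2 difference between replicate 2 and replicate 1 with LPS (horizontal axis) and with LPS plus immune complexes (vertical axis), 1 point per tested gene, coloured by complex and larger for a mean signal of at least 2000. Points in the lower left, such as Cox6a2, Ndufa4 and Atp5md, read lower on replicate 2 in both stimulations, and Ndufa2 and Ndufa3 read higher.

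The number of arrays limits what could be seen. The 95% interval of the difference, not adjusted for the number of genes, lay within a 2-fold change in either direction for 55 of the 90 genes, 52 of them among the 70 with strong signals and 3 among the 20 with weaker ones. Over the 70 genes the intervals reached from -1.25 to 0.88. For those 55 genes a change larger than 2-fold lies outside the interval.

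Besides the 90 probe sets used, 74 further probe sets of these genes were tested, and 56 of them had a difference below 0. Of the 47 of these with a mean signal of at least 2000, 40 were below 0, where 71.8% of all genes of that signal were. Over all 164 tested probe sets limma called 0 and 2 had an unadjusted p under 0.05, the dim probe set of Ndufa12 given above and a second probe set of Ndufa5, an accessory subunit of complex I, with a difference of -0.76. Of 47 genes with several tested probe sets, 27 had all of them below 0 and 20 were mixed. Of 33 genes with several at a mean signal of at least 2000, 25 had all of those below 0. Promoter letters divided the genes little: the median difference was -0.31 in tested genes with the NRF1 letters and -0.22 in those without, -0.29 and -0.23 for ETS, and -0.24 in both for YY1.

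**Figure D4:**
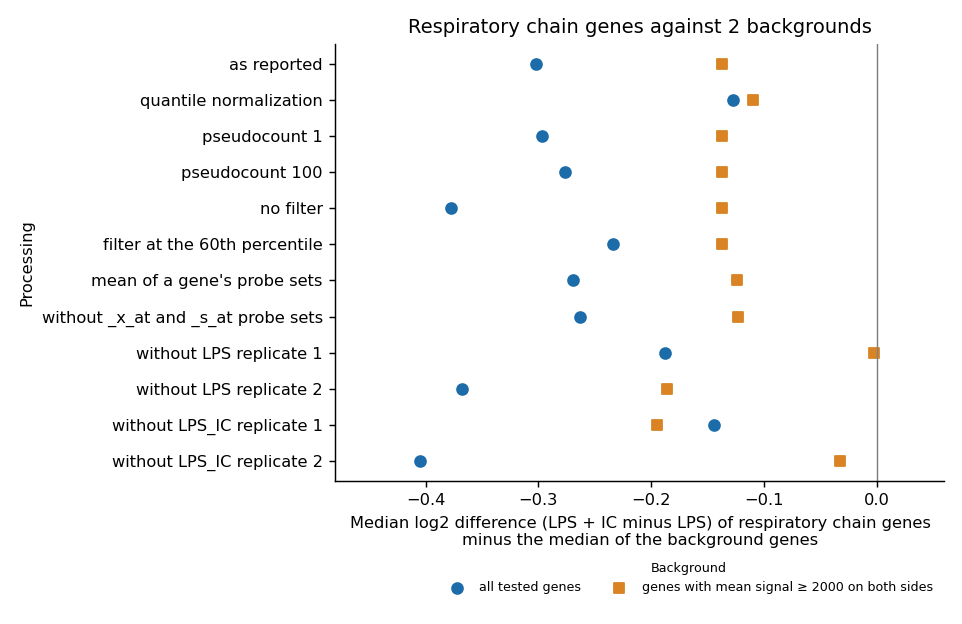
Median log2 difference of the respiratory chain genes minus that of background genes (horizontal axis), under each way of processing the arrays (vertical axis), against all tested genes (circles) and, on both sides, against genes with a mean signal of at least 2000 (squares). The gap to genes of like signal is -0.14 as reported and lies at -0.003 without LPS replicate 1. The same gap is plotted with each of the other arrays left out.

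Further genes of the pathway and of its surroundings were examined as lists, none of which held a call by limma or a gene with an unadjusted p under 0.05. In these lists 13.3% to 30.8% of the tested genes read lower in all pairs. Of all tested genes 13.1% did, and 25.5% of those with a mean signal of at least 2000. The shares higher in all pairs were 0% to 20%, against 13.2% and 9.02%. Respiratory chain genes outside the chosen symbols had 8 tested members, with a median of -0.14 and 2 lower in all pairs. Cox8a, a small subunit of complex IV, gave 11318.6, 7658.5, 7192.6 and 6375.2 (-0.46 ± 0.30), with LPS replicate 1 above the other 3 readings, and Higd1a, a hypoxia-inducible partner of complex IV, gave 3397.8, 2284.8, 4175.6 and 2936.1 (0.33 ± 0.35). The 15 assembly factors of complex I, which include the Ndufaf genes, had a median of 0.02, with 2 lower and 3 higher in all pairs. Ndufaf7, given above, and Tmem186 (126.6, 119.2, 431.9 and 108.4, a difference of 0.72 ± 0.62) had the largest. The 29 assembly factors of complexes II to V had a median of -0.09, with 5 lower and 4 higher. Besides Sdhaf3, the largest difference was in Sco1, a copper chaperone of complex IV, with 831, 331.3, 269 and 311 (-0.80 ± 0.48), where LPS replicate 1 alone was high.

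Among the tricarboxylic acid cycle and related enzymes, which feed the chain with NADH and succinate, 21 were tested, with a median of -0.17. Of the 21, 5 read lower in all pairs (23.8%) and 1 higher (4.76%). The one higher was Mdh1, the cytosolic malate dehydrogenase, with 7818.9, 7556.5, 8496.2 and 10728.4 (0.31 ± 0.28). Acod1, which makes itaconate from a cycle intermediate in activated macrophages, gave 32359.9, 41467, 28364 and 30827 (-0.31 ± 0.22), lower in all pairs. Of 19 regulators of mitochondrial biogenesis and mitochondrial DNA expression, 3 read lower in all pairs (15.8%) and 1 higher (5.26%), with a median of -0.15. The coactivator Ppargc1a gave 96.1, 133.5, 39.3 and 28.5 (-1.15 ± 0.89), with a mean signal of 74.35, close to the filter of 69.6. Its relative Ppargc1b gave 670, 1158.3, 238.7 and 878.6 (-0.88 ± 0.55), with overlapping groups. Another relative, Pprc1, lay on the other side of 0, with 811.7, 1271.9, 1153.1 and 1977.6 (0.56 ± 0.41), and its groups overlapped too. The 26 genes of import and inner membrane carriers had a median of -0.12. Of these, 8 read lower in all pairs (30.8%, where 25.5% of genes with a mean signal of at least 2000 did) and 1 higher (3.85%). Timm22, the channel that inserts carriers into the inner membrane, gave 1028.5, 1118.5, 562.2 and 768.5 (-0.68 ± 0.39), and the dicarboxylate carrier Slc25a10 gave 1149.6, 1416.5, 802.4 and 1133.3 (-0.41 ± 0.38). Both read lower in all pairs.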

How the data were processed

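Total RNA of 4 macrophage samples was hybridised to an Affymetrix mouse array of 45037 probe sets besides 64 controls. The deposited values are intensities on a linear scale, which the authors computed in MAS 5.0, per the submitters' processing notes. MAS 5.0 summarises the probes of a set and applies 1 scaling factor to an array. Other details of the processing are not given in the sources used here. No further scaling between arrays was applied, replicates were not pooled, and the table holds no detection calls.

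Groups came from the sample titles. Controls and probe sets with a mean signal under the 40th percentile were left out (27022 remained), and log2(signal + 32), which understates changes of dim genes, was fitted in limma 3.58.1 (R 4.3.3) with a variance trend and without a block, and its moderated test was two-sided. A probe set was called at an adjusted p under 0.05 (Benjamini-Hochberg, over all those tested), and the method was tested on simulated data. Genes were named from the platform annotation held by GEO, in which 34945 probe sets carry a single gene, and 10 probe sets that name a member with other genes were left out. The members and lists were chosen with earlier results of these data known, and the grouping at a mean signal of 2000 was added after seeing the data.

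Named genes were those called, per complex the 2 largest and 2 smallest differences among genes on one side in all 4 array pairs (or the largest), fixed catalytic subunits, tissue forms with their common forms, genes whose probe sets differed most, the 2 largest of each other list, and all of a count of 5 or fewer. Ndufa2, Ndufa3, Ndufa5, Ndufa11, Ndufab1, Ndufb4, Ndufs3, Ndufs4, Ndufs5, Ndufs6, Atp5md, Uqcrc2, Cox7a2l, Cox7c, Cox7b2, Cyc1 and Pprc1 were named after their values were seen, and Ndufb7 for its promoter. The macrophage marker Mertk was also named after its values were seen. Alternatives were quantile normalization, median centring, a pseudocount of 1 or 100, no filter or one at the 60th percentile, leaving out each array, other choices of probe set and the replicate number as a block.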

Additional observations from a re-analysis of the deposited data

How the results depend on the processing

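The median log2 difference of all respiratory chain genes, and that of each of the 5 complexes, stayed below 0 under each alternative run, while its size moved. For all genes it was -0.15 after quantile normalization, -0.45 with each array centred on its median, -0.18 when centred on genes with a mean signal of at least 2000 (added after seeing the data), and -0.29 to -0.17 leaving out each array in turn. The same 3 scalings gave -0.17, -0.44 and -0.16 for complex I, and quantile normalization and median centring gave -0.13 and -0.49 for complex III and -0.13 and -0.45 for complex V; median centring gave -0.52 for complex IV. The median of all tested genes was itself 0.05 as reported, -0.02, -0.15 and 0.13 under the 3 scalings. Leaving out each array gave -0.30 to -0.15 for complex I, -0.57 to -0.031 for complex II, -0.40 to -0.16 for complex III, -0.46 to -0.18 for complex IV and -0.36 to -0.18 for complex V. The median replicate difference with immune complexes, 0.10, became -0.078 after quantile normalization, 0.50 with median centring and -0.14 centred on genes of at least 2000. Genes lower in all pairs numbered 39, 21 after quantile normalization, 28 when centred on genes of at least 2000 and 50 to 64 with an array left out, which leaves 2 pairs (64 without LPS plus immune complexes replicate 2), and genes higher in all pairs numbered 3, 6 after quantile normalization, 0 among genes of at least 2000 and 6 to 12 with an array left out; the cause was not tested. An array left alone in its group is assumed to vary like the others.

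The labels state no shared animal, culture or day for the replicate numbers. Same-numbered arrays deviated together (correlation 0.38 over tested probe sets and 0.32 over members). With the replicate block, for which the fitted prior became infinite, 1 respiratory chain gene was called, Atp5k (adjusted p = 0.0296 by limma), against 0 without, and so was a second probe set of it (0.0443). The block called 391 of all 12891 tested genes (3.03%) and 214 of the 2405 with a mean signal of at least 2000 (8.9%), so 1 of 90 (1.11%) is below the share over all genes.

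Among named genes that were tested and taken by symbol, the sign of the difference changed as follows, all in genes that were not called. Named genes of the other lists were not followed in this way. After quantile normalization Atp5b was 0.046, Cox5a 0.14, Ndufa12 0.011, Sdhc 0.0596 and Uqcrfs1 0.018. With median centring Ndufab1 was -0.076 and Atp5md -0.18. As the mean of a gene's probe sets Atp5a1 was 0.0074, Ndufab1 -0.013, Ndufa12 0.23, Sdhd 0.18 and Uqcrq 0.10, and without probe sets ending in _x_at or _s_at, which can bind several transcripts, Ndufa12 was 1.06, Ndufab1 -0.15, Ndufc2 0.020 and Uqcrq 0.086. Centred on genes of at least 2000, Cox5a was 0.013, Cox6a2 0.0399, Sdhaf1 0.021 and Sdhc 0.0593. Leaving out each array moved Atp5b from -0.35 to 0.18, Cox4i2 from -0.69 to 0.071, Cox5a from -0.16 to 0.022, Cox6a2 from -0.73 to 0.65, Cox6b2 from -0.51 to 0.11, Ndufa4 from -0.89 to 0.19, Ndufa4l2 from -0.99 to 0.65, Ndufaf6 from -1.17 to 0.10, Ndufs1 from -0.48 to 0.039, Sdha from -0.69 to 0.045, Sdhaf1 from -0.27 to 0.15, Sdhaf2 from -0.29 to 0.089, Sdhaf4 from -0.46 to 0.21, Sdhc from -0.24 to 0.19, Uqcrfs1 from -0.47 to 0.25, Ndufa2 from -0.61 to 0.077, Ndufa5 from -0.42 to 0.065, Ndufab1 from -0.16 to 0.40, Atp5md from -0.45 to 0.48, Uqcrc2 from -0.49 to 0.26, Cox7a2l from -0.45 to 0.0033 and Cox7c from -0.86 to 0.10.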
